A study of Mus musculus with 70 samples.

Results

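Hr, Klf9, Thrsp, Me1, Atp2a2, Nrgn, Mbp, Pcp2 and Slc2a4 are genes known for their response to thyroid hormone in tissues other than the pituitary, and their RNA and chromatin are described here in the mouse pituitary. These 9 genes, of 22835 genes in the RNA-seq table, were taken by symbol, and for a gene with several listed transcripts the transcript with the highest mean level was used. Wild type and Thrb-deficient mice for RNA were C57BL/6J males of 2 to 4 months by the study's methods. The mice for chromatin carry C57BL/6J as strain in the labels, but the methods describe mixed backgrounds with 129 substrains and, for the biotin ligase line, FVB/N. RNA came from whole pituitaries, pooled 3 per library, in 4 groups. All 4 drank water with methimazole (MMI, 0.05%) plus potassium perchlorate (1%), which block hormone synthesis, over 4 to 5 weeks. Hypothyroid wild type mice gave 4 libraries and hypothyroid Thrb-deficient (Thrb-KO) mice 5 libraries. Hyperthyroid wild type (4 libraries) and hyperthyroid Thrb-KO mice (5 libraries) also drank 0.5 ug/ml triiodothyronine (T3) in the final week. Binding of the receptor TRβ was mapped by chromatin-affinity purification (ChAP) in untreated mice that carried Thrb HAB/HAB, a receptor with a biotin-acceptor tag, and Rosa26 BirA/BirA, the biotin ligase, against controls described by title as BirA mice, with 3 libraries of each in pituitary (12 pituitaries pooled) and in cerebral cortex. T3-regulated open chromatin was listed from ATAC-seq of nuclei purified from Rosa26 Sun1-GFP; Thrb2-Cre mice, hypothyroid or hyperthyroid (4 libraries each), so it covers only cells marked by that Cre.

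T3 acts through nuclear receptors encoded by Thra and Thrb, which bind DNA mostly as heterodimers with the retinoid X receptors, often at direct repeats of AGGTCA separated by 4 bases (DR4). Without hormone the receptors recruit corepressor complexes, and hormone exchanges these for coactivators. The genes described here became textbook targets in skin and brain (Hr, Klf9), liver and fat (Thrsp, Me1), heart and muscle (Atp2a2, Slc2a4) and the developing brain (Nrgn, Mbp, Pcp2).

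Counts of reads assigned to transcripts summed to 21453548 to 55273749 per library (median 34673225). A read shared by several listed transcripts can count more than once in these sums. Replicates 1 and 2 stood apart from replicates 3 to 5 in each group: deviations from the group means correlated at -0.73 to -0.27 across genes between libraries of different sets, and the labels do not say what separates the sets. Tshb, the thyrotropin subunit repressed by T3, lay at 2902 to 6462 CPM (read counts scaled to the library total) in hypothyroid and 40.5 to 422 CPM in hyperthyroid wild type libraries. Gh, the growth hormone gene, was at 48330 CPM or more in every library, and the tissue matched its label. The listed Thrb transcript lay at 239 to 297 CPM in hypothyroid wild type and 239 to 295 CPM in hypothyroid Thrb-KO libraries. In hyperthyroid libraries it lay at 72.4 to 123.5 CPM in wild type and 228 to 300.5 CPM in Thrb-KO. Such a higher Thrb-KO group without overlap held for 7.61% of 13145 genes. The part of the gene that the allele lacks is not given in the sources used here, so these levels do not check the genotype. Replicates are separate pools, and the p-values measure the spread between pools. That spread includes the difference between the sets of replicates, which the main fit did not model. In whole tissue, fewer cells of a type and less RNA per cell cannot be told apart.

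Of the 9 genes, 6 exceeded 1 CPM in all 18 libraries and entered the test across genes (limma on log2(CPM + 1), called at an adjusted p under 0.05 and at least 1.5-fold). T3 raised 2 of these 6 in wild type pituitary, Hr and Klf9, while 3.87% of the 13145 genes tested were called higher. The same 2 genes were called higher in Thrb-KO pituitary, where only 0.411% of genes were called higher. Their wild type groups did not overlap, which held in the upward direction for 5.66% of genes. Their Thrb-KO groups did not overlap either, which held upward for 2.05% of genes. Thrsp, Me1, Atp2a2 and Mbp were called in none of the 5 comparisons. Slc2a4 and Nrgn exceeded 1 CPM in 9 and 7 libraries and were read from a wider fit, and Pcp2 exceeded it in none.

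**Figure D1:**
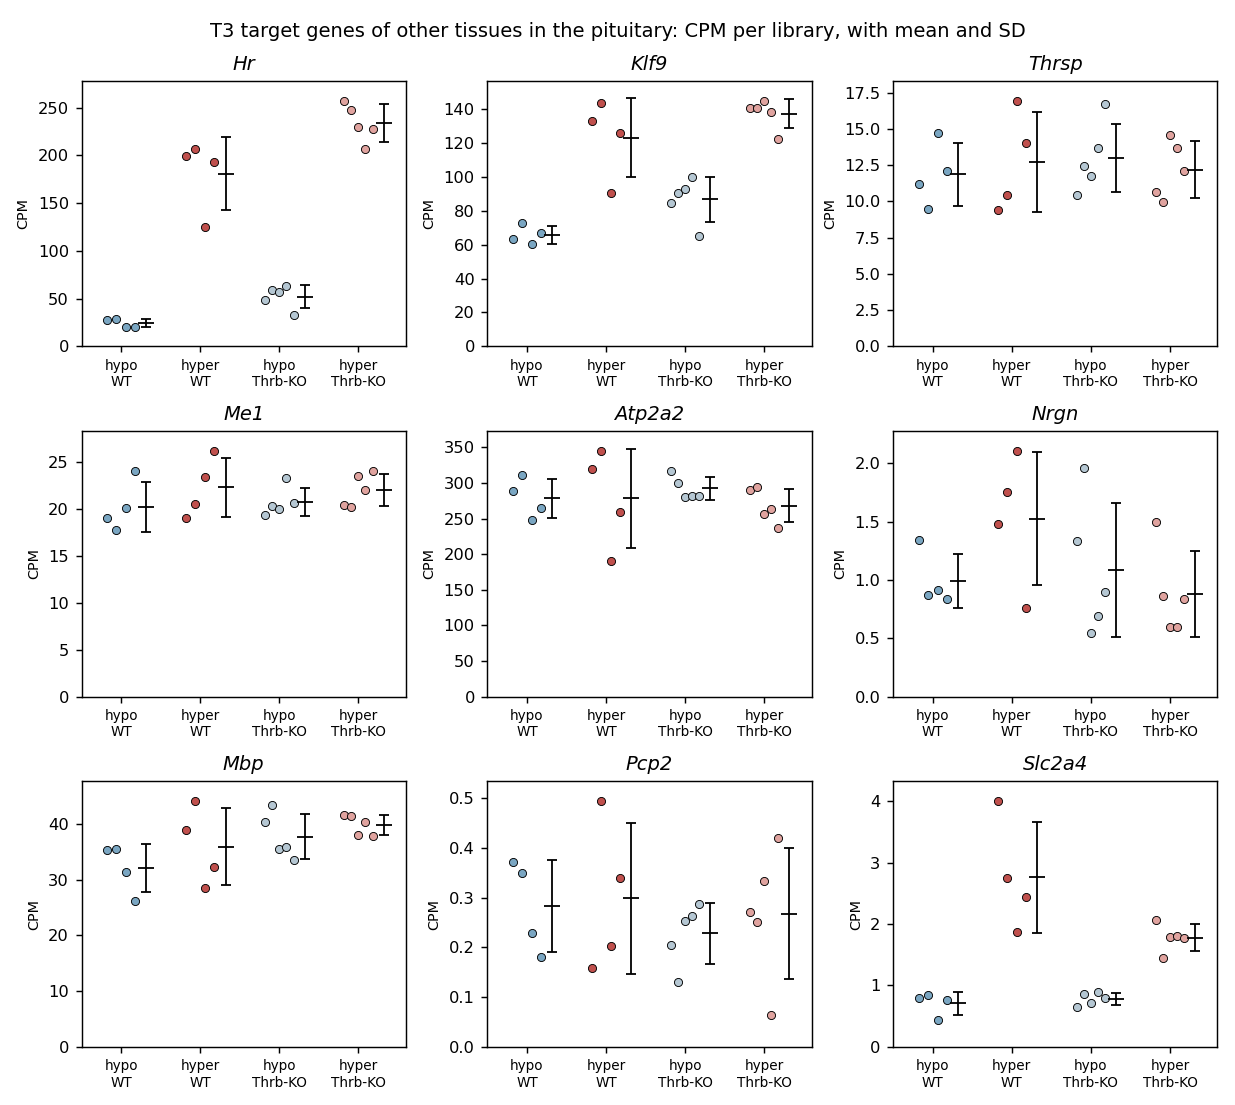
Level of each gene (CPM, linear axis from 0) in each of the 18 libraries by group, with group mean and SD beside the points. Hr, Klf9 and Slc2a4 have no overlap between hypothyroid and hyperthyroid libraries in either genotype, and for the other 6 genes these overlap in both genotypes. Upward separation of this kind held for 5.66% of tested genes in wild type and 2.05% in Thrb-KO.

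Hr encodes Hairless, a nuclear corepressor that binds thyroid hormone and vitamin D receptors and is needed for the hair cycle. In hypothyroid wild type pituitary Hr (NM_021877) lay at 28.1, 29.2, 20.6 and 20.7 CPM. In hyperthyroid wild type libraries it lay at 200, 206, 125 and 193 CPM. The lowest hyperthyroid library, replicate 3, was still above every hypothyroid library. The 10 anterior pituitary hormone and lineage markers summed to 225200 CPM in that library and to 108100 to 146800 CPM in the other 3 of its group, and their part in its Hr level was not tested. In Thrb-KO pituitary Hr lay at 48.1, 59.6, 56.5, 62.8 and 33.3 CPM when hypothyroid, and at 257, 248, 230, 206 and 228 CPM when hyperthyroid. All 5 hypothyroid Thrb-KO libraries were thus above all 4 hypothyroid wild type libraries, which held for 7.6% of the 13145 genes tested. The order of the groups was hypothyroid wild type, hypothyroid Thrb-KO, hyperthyroid wild type, hyperthyroid Thrb-KO.

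T3 raised the log2 level of Hr by 2.82 ± 0.19 (SE, adjusted p = 3.21e-09, limma) in wild type and by 2.18 ± 0.17 (adjusted p = 2.48e-07) in Thrb-KO pituitary. Ranked by signed change, Hr was number 7 of 13145 genes in wild type and number 1 in Thrb-KO. In the hypothyroid state the Thrb-KO level was higher by 1.03 ± 0.18 (log2, adjusted p = 9.25e-04), where 1.01% of genes were called higher. The last neighbours in the order, the hyperthyroid groups, differed by 0.39 ± 0.18 (adjusted p = 0.176) and were not separated by the test, in which 4.86% of genes were called in either direction. The T3 response was smaller by 0.64 on the log2 scale in Thrb-KO (95% confidence interval of the difference -1.16 to -0.12), which did not pass over all genes (adjusted p = 0.185), and limma called none of the 6 genes in this interaction, which called 4.26% of all genes, while 1 of 6 (Hr) had an unadjusted p under 0.05, edgeR called 0 and DESeq2 called 1 (Hr). Limma called the Hr interaction in some fits that left out 1 library. Without hyperthyroid wild type replicate 3 the interaction was -0.81 (adjusted p = 0.0315), and without hypothyroid Thrb-KO replicate 5 it was -0.79 (adjusted p = 0.0378). DESeq2 was not refitted without single libraries. Within replicates 1 and 2 the interaction was -0.57 (adjusted p = 6.75e-03, below the 1.5-fold limit), and within replicates 3 to 5 it was -0.70 (adjusted p = 0.323).

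Hr (chr14:70952019-70973355 in mm9, plus strand, ENSMUSG00000022096) had 2 TRβ peaks in the pituitary list. The peak with more reads, chr14:70951451-70952350, covered the transcription start, with 154 reads from tagged and 40 from control mice. Its fold enrichment of 3.21, given by the peak caller, was among the lowest of the pituitary list, at percentile 0.83. The more enriched, chr14:70949101-70949550, lay 2469 bases upstream with 69 tagged and 5 control reads. Both were overlapped by cortex peaks, with 19 tagged against 1 control read upstream and 40 against 3 at the start. Each pituitary peak held a near match to the DR4 on the minus strand, with 2 of the 12 bases of the repeats different. In the upstream peak the substitutions are G2A and T14G, counted from 1 at the 5′ end of the first repeat, so that the window reads AAGTCAacccAGGGCA. It is shown in place because Hr changed most of the genes described here. The sequence is the plus strand of mm9, chr14:70949251-70949550, with the reverse complement of the repeats in capitals.
Hr upstream peak: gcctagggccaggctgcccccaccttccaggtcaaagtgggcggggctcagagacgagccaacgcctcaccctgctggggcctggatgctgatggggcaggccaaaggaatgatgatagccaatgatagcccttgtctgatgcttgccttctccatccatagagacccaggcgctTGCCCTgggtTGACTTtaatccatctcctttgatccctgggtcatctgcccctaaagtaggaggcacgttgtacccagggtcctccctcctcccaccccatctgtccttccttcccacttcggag

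A match of this quality is common, being present in 20.9% of all 8051 pituitary peaks, in 29.6% of pituitary peaks of 450 bases and in 6 of the 13 peaks of 900 bases. No T3-regulated ATAC site lay within 100 kb of Hr.

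Of the corepressor Ncor1, the histone deacetylase Hdac3, the demethylases Kdm3a and Kdm3b and the vitamin D receptor Vdr, 1 of 5 was called in wild type. Over all genes tested 9.46% were called there in either direction. Vdr rose from 15.8 ± 0.617 to 43.1 ± 14.0 CPM (SD, n = 4 each) with T3, a log2 change of 1.33 (adjusted p = 5.95e-05), and lay at 2.05 and 2.83 CPM in the hypothyroid and hyperthyroid Thrb-KO groups. Its T3 response was smaller in Thrb-KO by 0.99 on the log2 scale and this difference was called. The Thrb-KO minus wild type difference of Vdr was -2.49 (log2) in the hypothyroid and -3.48 in the hyperthyroid state, both called, a direction opposite to that of Hr in the hypothyroid state. The genes with the pattern most like Hr over the 18 libraries, centred within each set of replicates and sharing group and depth, were Adcy7, an adenylyl cyclase (Pearson r = 0.989), and Apobec1, a cytidine deaminase that edits RNA (r = 0.979). Adcy7 rose by 1.90 in wild type and 1.77 in Thrb-KO pituitary on the log2 scale, and Apobec1 by 1.92 and 1.23.

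Klf9 encodes a zinc-finger transcription factor of the Krüppel-like family that T3 and glucocorticoids induce in brain. In hypothyroid wild type pituitary Klf9 (NM_010638) lay at 63.2, 72.5, 60.5 and 66.7 CPM, and in the hyperthyroid state at 133, 143, 90.3 and 126 CPM. In Thrb-KO pituitary it lay at 84.6, 90.5, 92.9, 99.9 and 64.8 CPM when hypothyroid and at 140, 140, 145, 138 and 122 CPM when hyperthyroid. Hypothyroid and hyperthyroid libraries did not overlap in either genotype, and hyperthyroid wild type replicate 3 and hypothyroid Thrb-KO replicate 5, low for Hr, were again the lowest of their groups. T3 raised Klf9 by 0.88 ± 0.13 (log2, SE, adjusted p = 9.95e-05) in wild type and by 0.67 ± 0.12 (adjusted p = 0.00338) in Thrb-KO. The responses differed by 0.21 with an interval from -0.59 to 0.17 (adjusted p = 0.769).

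The call in Thrb-KO was close to the limits. Without hypothyroid Thrb-KO replicate 5 the rise was 0.57, under 1.5-fold (adjusted p = 0.00919). Within replicates 3 to 5 it was 0.67 (adjusted p = 0.0702) and within replicates 1 and 2 it was 0.68 (adjusted p = 8.04e-05). Thrb-KO and wild type levels of Klf9 were not separated by the test in the hypothyroid (0.38 ± 0.13, adjusted p = 0.0896) or the hyperthyroid state (0.17 ± 0.13, adjusted p = 0.44). Hr and Klf9 followed each other over the libraries (r = 0.966), and the gene closest to Klf9 was Ccdc6 (r = 0.969), which rose by 0.74 in wild type pituitary. Of the paralogues Klf13, Klf14 and Klf16, Klf13 rose from 52.3 to 88.9 CPM in wild type (log2 0.77, adjusted p = 1.62e-04) and from 56.8 to 92.7 CPM in Thrb-KO, where it was also called. Klf16 fell from 8.58 to 4.85 CPM in wild type (log2 -0.71, adjusted p = 5.20e-04), and Klf14 was called in neither genotype.

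Klf9 (chr19:23215716-23241401, plus strand, ENSMUSG00000033863) had the most peaks of the 9 genes, with 5 in the pituitary list, all between 4416 and 7416 bases upstream at their near ends. Tagged against control reads were 41 against 3, 60 against 4, 108 against 2, 103 against 1 and 20 against 3 from the farthest to the nearest. The fold enrichment given by the peak caller for the fourth, chr19:23210301-23210750, was higher than for 98.9% of the 8051 pituitary peaks when ranked. In cortex a single peak of 3050 bases, chr19:23208201-23211250, with 366 tagged and 19 control reads, overlapped all 5. A second cortex peak, chr19:23215151-23215700, ended 16 bases before the start, where the pituitary list had none. The second pituitary peak was also the site of the only T3-regulated ATAC peak within 20 kb of any of the 9 genes, which shared 282 of its 300 bases.

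**Figure D2:**
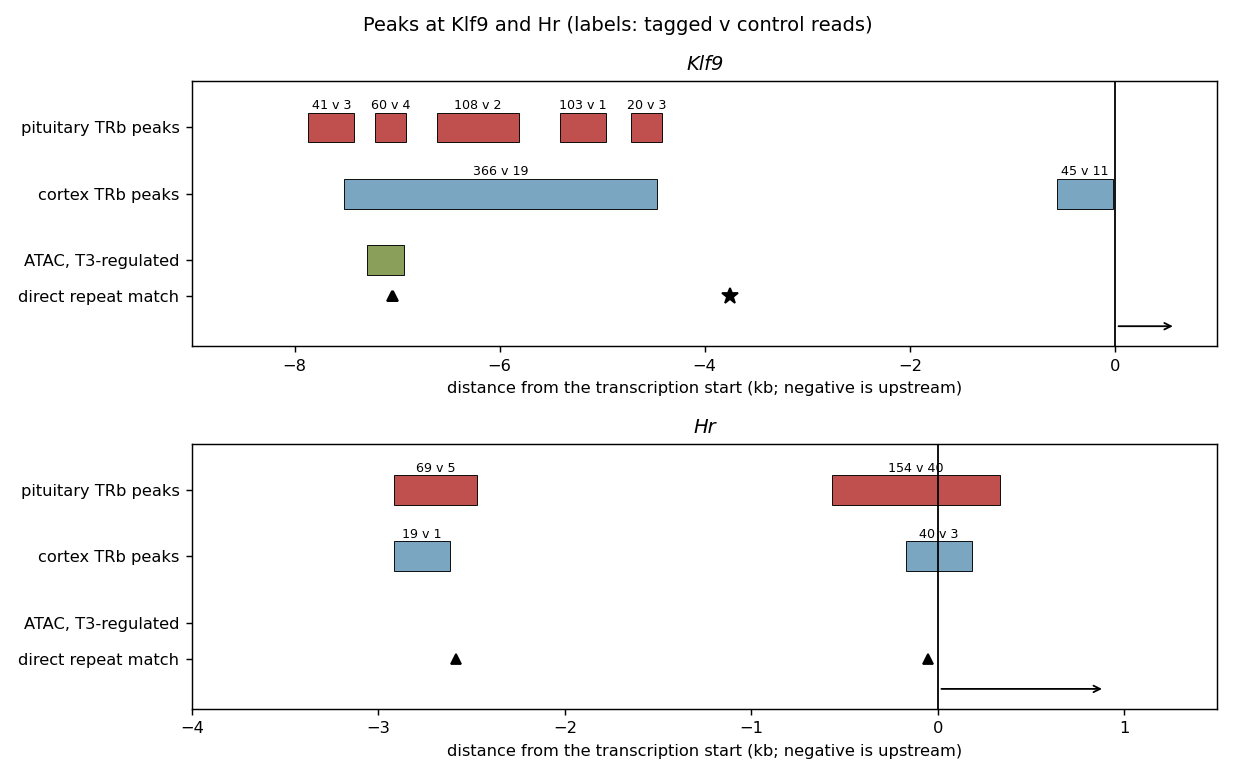
Listed peaks at Klf9 and Hr against the distance from the transcription start in kb (negative is upstream), drawn to scale, with tagged and control reads above each TRβ peak. Triangles mark DR4 matches with 2 mismatches inside peaks, and the star marks the match with 1 mismatch upstream of Klf9, which lies outside every peak shown.

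Stretches of the Klf9 upstream region are printed because the strongest binding and the closest motif lie in different places. The peak at the T3-regulated ATAC site was the only 1 of the 5 with a DR4 match of at most 2 mismatches. The ATAC list holds T3-regulated sites only, so it does not say whether the other peaks lie in open chromatin. The first stretch is the central 300 bases of the most enriched peak, chr19:23210376-23210675, whose closest window differs from the DR4 at 3 bases, a match that 54.97% of pituitary peaks hold, with its repeats in capitals. The last is chr19:23211893-23212028 around a window that differs at only 1 base (C5G), AGGTGAagtgAGGTCA, at 23211953 to 23211968. Both are the plus strand of mm9.
Klf9 most enriched peak: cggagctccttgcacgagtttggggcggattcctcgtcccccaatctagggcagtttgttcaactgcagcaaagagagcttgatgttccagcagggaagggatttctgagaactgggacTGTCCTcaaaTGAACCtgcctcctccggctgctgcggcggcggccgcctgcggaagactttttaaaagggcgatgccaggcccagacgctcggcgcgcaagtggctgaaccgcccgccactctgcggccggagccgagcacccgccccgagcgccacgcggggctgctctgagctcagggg
Klf9 closest match: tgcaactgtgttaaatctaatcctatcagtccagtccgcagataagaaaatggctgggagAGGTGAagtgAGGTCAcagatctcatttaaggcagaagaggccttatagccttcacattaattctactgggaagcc

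The closest match lay 3748 bases before the start, 653 bases from the nearest pituitary peak and 703 from the nearest cortex peak. Around the 8 genes outside the chromosome of Mbp, counting 20 kb on each side, there were 5 windows with at most 1 mismatch in 551521 bases, 0.907 per 100 kb, and chromosome 19 as a whole held 0.934 per 100 kb. None of the 5 lay in a listed peak. One of them stood 6204 bases upstream of Thrsp, with the nearest pituitary peak 57092 bases away. The search was made after the peaks had been seen.

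Thrsp and Me1 belong to fat synthesis. Thrsp encodes a nuclear protein that promotes lipogenesis in liver, and Me1 is the cytosolic malic enzyme, a source of NADPH. Thrsp (NM_009381, chr7:104561448-104566240, minus strand) lay at 11.2, 9.503, 14.7 and 12.1 CPM in hypothyroid and 9.38, 10.4, 16.9 and 14.0 CPM in hyperthyroid wild type libraries, and at 9.94 to 16.7 CPM in the Thrb-KO libraries. The 4 groups overlapped throughout, and the closest patterns over the libraries were those of Vcp (r = 0.857) and Cirbp (r = 0.769). The T3 change was 0.07 (log2, interval -0.30 to 0.44) in wild type and -0.08 (-0.41 to 0.25) in Thrb-KO, so a 1.5-fold change lay outside both intervals. Thrsp had no TRβ peak within 20 kb in either tissue. Its paralogue Mid1ip1, a regulator of acetyl-CoA carboxylase, rose from 23.2 to 56.0 CPM with T3 in wild type (log2 1.23, adjusted p = 2.59e-07), against 32.8 and 40.9 CPM in Thrb-KO, and this interaction was called. Mid1ip1 had a pituitary peak that reached its gene body.

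Me1 (NM_008615) lay at 19.03, 17.8, 20.1 and 24 CPM in hypothyroid and 19.1, 20.6, 23.4 and 26.2 CPM in hyperthyroid wild type libraries. Thrb-KO libraries lay at 19.4 to 24 CPM, and no group stood apart. Rdh13 (r = 0.830) and Nap1l4 (r = 0.790) had the closest patterns. The T3 change was 0.13 (interval -0.09 to 0.36) in wild type and 0.08 (-0.12 to 0.29) in Thrb-KO. Of the malic enzymes Me1, Me2 and Me3 and the other NADPH sources G6pdx, Pgd, Idh1 and Tkt, limma called 0 of 7 in wild type, where 9.46% of all genes were called in either direction, and 1 of 7 (Idh1) had an unadjusted p under 0.05. Idh1 lay at 22.2 and 31.97 CPM (log2 0.51, adjusted p = 0.00493, under 1.5-fold), and edgeR (0.59, adjusted p = 0.00298) and DESeq2 (0.60, adjusted p = 1.34e-04) called it.

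Me1 (chr9:86474970-86589947, minus strand) nevertheless had a pituitary peak over its transcription start, chr9:86589901-86590200, with 21 tagged and 0 control reads and no cortex counterpart. It is shown because TRβ was recovered at the start of a gene whose RNA was not called. The 253 bases of the peak before the start, chr9:86589948-86590200, are printed as the plus strand of mm9, opposite to the gene, with the window closest to the DR4 in capitals, which differs at 3 bases.
Me1 before the start: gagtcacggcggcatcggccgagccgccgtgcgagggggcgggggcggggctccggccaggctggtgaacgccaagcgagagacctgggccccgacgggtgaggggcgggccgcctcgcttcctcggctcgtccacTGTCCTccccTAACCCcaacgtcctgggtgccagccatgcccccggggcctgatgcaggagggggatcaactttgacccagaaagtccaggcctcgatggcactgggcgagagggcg

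Atp2a2 and Slc2a4 are targets of heart and muscle. Atp2a2 encodes SERCA2, the calcium pump of the endoplasmic reticulum, and T3 raises it in heart. In hypothyroid wild type pituitary Atp2a2 (NR_027838, chr5:122903531-122952183, minus strand) lay at 289, 311, 248 and 266 CPM, and in hyperthyroid libraries at 319, 345, 190 and 259 CPM. Thrb-KO libraries lay between 237 and 317 CPM. The hyperthyroid wild type libraries held both the highest and the lowest value of all 18, and Tcf12 (r = 0.945) and Dock9 (r = 0.939) had the closest patterns. The T3 change was -0.03 (log2, interval -0.33 to 0.26) in wild type and -0.13 (-0.39 to 0.14) in Thrb-KO, both within 1.5-fold. The 3 listed transcripts of Atp2a2 share reads, and the other two gave group means of 194 to 261 CPM.

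The other pumps of the family differed from Atp2a2. Atp2a1, the pump of fast skeletal muscle, rose from 2.92 to 5.57 CPM in wild type (log2 0.73, adjusted p = 0.00136) and was also called in Thrb-KO. Atp2a3 fell from 62.1 to 14.3 CPM in wild type (log2 -2.04, adjusted p = 2.22e-08) and lay at 17.8 and 13.5 CPM in hypothyroid and hyperthyroid Thrb-KO pituitary. Atp2a2 had a pituitary peak of 26 tagged and 5 control reads 168 bases before its start, lying whole within a cortex peak over the start (66 against 23 reads), and a second pituitary peak of 14 against 1 reads 7468 bases upstream.

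Slc2a4 encodes GLUT4, the insulin-responsive glucose transporter of muscle and fat. It was a low gene here, with 19 to 178 reads per library. Slc2a4 (NM_009204) lay at 0.799, 0.845, 0.436 and 0.761 CPM in hypothyroid and 4.00, 2.75, 1.87 and 2.43 CPM in hyperthyroid wild type libraries. In Thrb-KO it lay at 0.649, 0.851, 0.706, 0.887 and 0.799 CPM when hypothyroid and 2.06, 1.45, 1.79, 1.80 and 1.77 CPM when hyperthyroid. Every hyperthyroid library exceeded every hypothyroid library in both genotypes. Among the 13145 tested genes, which do not include Slc2a4, this held for 5.66% in wild type and 2.05% in Thrb-KO. It passed the wider filter, above 1 CPM in at least 4 libraries, only through the hyperthyroid groups, so its T3 response was taken from the fit without a filter on low values.

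In that fit of 21461 genes Slc2a4 rose by 1.11 (log2 of CPM + 1, adjusted p = 8.20e-06, limma) in wild type, where 2.93% of genes were called higher, and by 0.64 (adjusted p = 0.00529) in Thrb-KO, where 0.359% were. In the filtered wider fit of 14472 genes, which it entered because of its high groups and which therefore adds no support, 4.28% and 0.567% of genes were called higher. The added 1 CPM understates the change of a gene this low: the ratio of the group mean CPM was 3.89 in wild type and 2.28 in Thrb-KO. The genotype differences and the interaction were read from the filtered wider fit, so they give sizes only and add no support. The hypothyroid groups differed by 0.06 (interval -0.21 to 0.33). In the hyperthyroid state Thrb-KO was lower by 0.41 ± 0.13 on the log2 scale, under the 1.5-fold limit, and edgeR on the recovered reads gave -0.72. That difference was -0.66 within replicates 1 and 2 and -0.17 within replicates 3 to 5. The interaction was -0.48, and -0.60 without hyperthyroid wild type replicate 3.

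Slc2a4 is best known from fat and muscle. The 5 adipocyte markers summed to 1.00 to 4.02 CPM over all libraries, nearly all of it Fabp4, with Adipoq at or below 0.0655 CPM, and the hypothyroid wild type range (2.45 to 4.02 CPM) was not below the hyperthyroid (1.15 to 4.01 CPM). The 7 skeletal and cardiac muscle markers summed to 1.33 to 2.53 CPM, and their sums overlapped between all 4 groups. That list does not hold the heart myosins Myh6 and Myh7. Myh6 lay on average at 0.237, 72.2, 0.215 and 0.207 CPM in hypothyroid wild type, hyperthyroid wild type, hypothyroid Thrb-KO and hyperthyroid Thrb-KO pituitary, and Myh7 at 5.13, 39.1, 7.54 and 5.68 CPM. These moved with Slc2a4 in wild type, and the marker sums were of the size of Slc2a4 itself. The part of fat or muscle cells in the Slc2a4 level was not tested. Among the other glucose transporters Slc2a3 rose from 9.23 to 14.8 CPM in wild type (log2 0.62, adjusted p = 1.15e-04), while Slc2a1 and Slc2a8 were not called. Slc2a4 (chr11:69756045-69761690, minus strand) had 2 weak pituitary peaks within 20 kb, of 14 against 2 and 16 against 3 reads, the latter over an untranslated exon, and none in cortex.

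**Figure D3:**
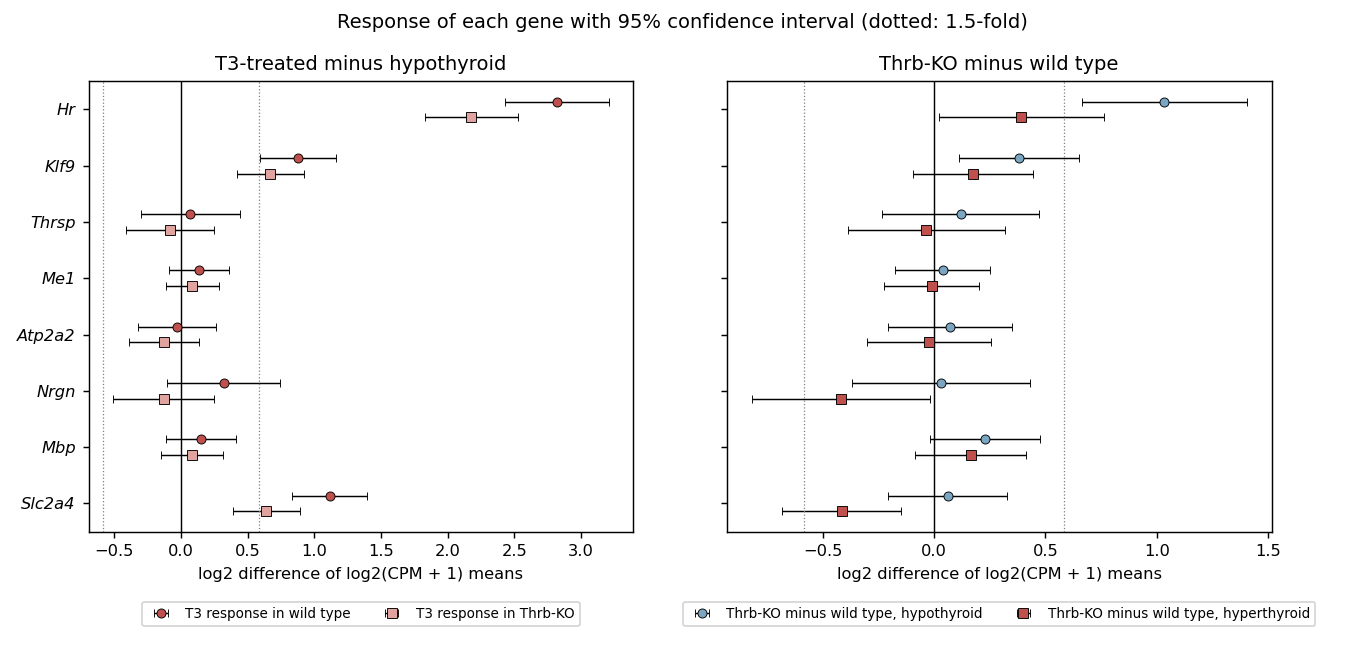
Difference in mean log2(CPM + 1) with its 95% confidence interval for 8 of the 9 genes, T3 response on the left and genotype difference on the right, with dotted lines at 1.5-fold. The intervals of the T3 difference lie above 0 in both genotypes for Hr and Klf9 and also for Slc2a4, which entered the plotted fit only through its hyperthyroid libraries. Hr alone is called between genotypes in the hypothyroid state, and the intervals of Thrsp, Me1, Atp2a2 and Mbp cross 0 in each comparison.

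Nrgn, Mbp and Pcp2 are targets of the nervous system. Nrgn encodes neurogranin, a calmodulin-binding protein of dendritic spines. Nrgn (NM_022029, chr9:37352078-37360330, minus strand), with 18 to 66 reads per library, lay at 1.34, 0.875, 0.918 and 0.834 CPM in hypothyroid and 1.48, 1.76, 2.11 and 0.759 CPM in hyperthyroid wild type libraries, and at 0.543 to 1.96 CPM in Thrb-KO libraries. All groups overlapped. The T3 change was 0.32 (log2, interval -0.10 to 0.74) in wild type, which reaches past 1.5-fold. A change of that size was thus neither called nor bounded, and what widens the interval was not tested. Pcp4, another small calmodulin-binding protein, rose from 10.3 ± 2.64 to 39.5 ± 25.5 CPM (SD, n = 4 each, log2 1.68, adjusted p = 3.59e-04). Nrgn had a pituitary peak of 20 tagged and 0 control reads 14671 bases upstream.

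Mbp encodes myelin basic protein, and in the brain its onset in oligodendrocytes follows T3. The transcript used, NM_001025245, lay at 35.4, 35.6, 31.4 and 26.3 CPM in hypothyroid and 39.003, 44.2, 28.5 and 32.3 CPM in hyperthyroid wild type libraries. In Thrb-KO libraries it lay at 40.4, 43.5, 35.6, 35.8 and 33.5 CPM when hypothyroid and at 41.7, 41.4, 38.1, 40.5 and 37.9 CPM when hyperthyroid. Hypothyroid and hyperthyroid libraries overlapped within each genotype, as did the genotypes within each hormone state. Pcdhb14 (r = 0.919) and Rhobtb2 (r = 0.912) had the closest patterns. The T3 change was 0.15 (log2, interval -0.11 to 0.41) in wild type and 0.08 (-0.15 to 0.32) in Thrb-KO. Thrb-KO exceeded wild type by 0.23 (-0.02 to 0.48, adjusted p = 0.326) in the hypothyroid state.

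The calls for Mbp cover the transcript used, and which form of Mbp each transcript encodes was not resolved here. The other 7 listed Mbp transcripts were not tested singly and had levels close to one another in each library. Their median lay at 5.11 to 24.7 CPM, and the 3 highest libraries were hypothyroid Thrb-KO replicate 2 (24.7 CPM), hyperthyroid wild type replicate 2 (18.3 CPM) and hyperthyroid Thrb-KO replicate 1 (15.7 CPM), from 3 different groups. The same 3 libraries had the highest sums of the Schwann cell markers Pmp22, Prx and Sox10, at 17.97, 18.5 and 16.5 CPM, above 8.81 to 15.7 CPM in the other 15 libraries by a narrow margin. Most of this sum was Pmp22, which other cells also express. These libraries were also high for the sum of 3 smooth muscle markers, at 28.3, 18.4 and 24.8 CPM in the same order. Only hypothyroid wild type replicate 1 was higher for that sum (31.2 CPM). The sum of the oligodendrocyte markers ranged from 16.2 to 25.4 CPM with overlap of all groups, and Mog, Mag, Mobp, Opalin and Ermn did not exceed 1 CPM in any library. The part of such cells in the Mbp level was not tested. Mbp had a pituitary peak of 15 against 1 reads and a cortex peak of 17 against 2, both in introns and not overlapping.

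**Figure D4:**
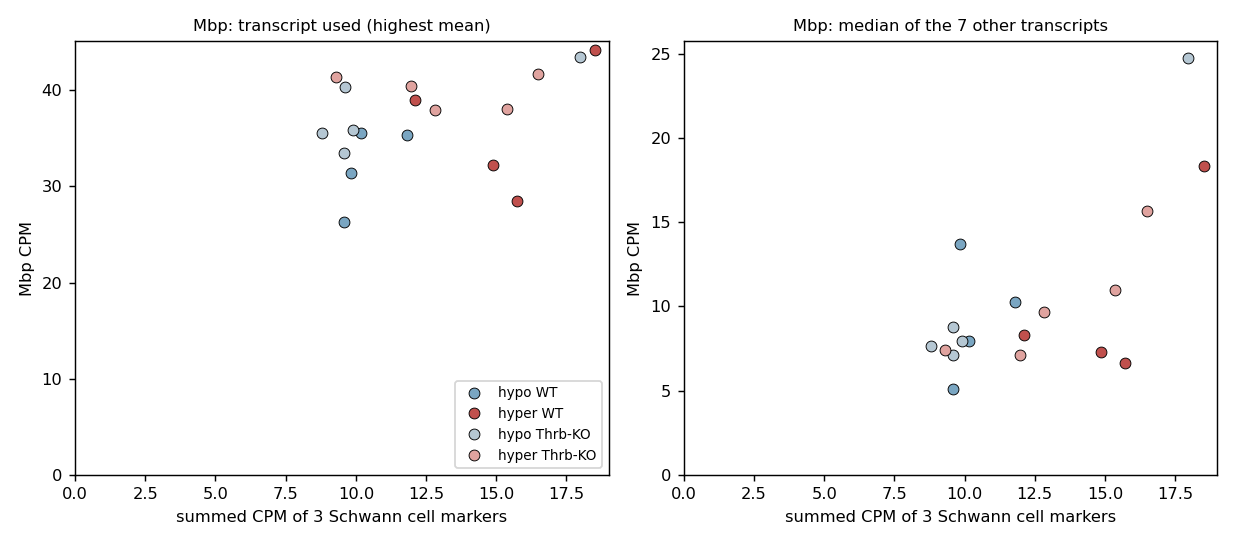
Mbp level (CPM) against the summed CPM of 3 Schwann cell markers in the 18 libraries, for the transcript used (left) and the median of its 7 other transcripts (right). The 3 libraries with the highest marker sums, 16.5 to 18.5 CPM, are the 3 highest on the right, at 15.7 to 24.7 CPM.

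Pcp2, a G protein regulator of Purkinje and retinal bipolar cells, was all but absent. Pcp2 (NM_008790, chr8:3623371-3625545, minus strand) had 2 to 18 reads per library, 0.0631 to 0.495 CPM, and all groups overlapped. At this depth a change was not detectable, and in the fit without a filter the T3 change was 0.01 (log2 of CPM + 1). Its relatives with GoLoco domains, Gpsm1, Gpsm2 and Gpsm3, were called in neither genotype.

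By peaks, 7 of the 9 genes had a pituitary TRβ peak within 20 kb of the gene body, against 41.2% of the tested genes that could be placed. In cortex 4 of 9 had one (Hr, Klf9, Atp2a2 and Mbp), against 34.9%, and 1 of 9 had a T3-regulated ATAC site (Klf9), against 7.71%. These shares cover genes above 1 CPM in all 18 libraries. Among the 6 members tested, 5 had a pituitary peak, 4 a cortex peak and 1 an ATAC site. Of 14 pituitary peaks, 8 were overlapped by a cortex peak, 5 at Klf9, 2 at Hr and 1 at Atp2a2. The 5 at Klf9 all met the same cortex peak. The share of all pituitary peaks overlapped in this way was not counted here, so the 8 are a description only. A DR4 match with at most 2 mismatches was held by 3 of the 14, against 20.9% of all 8051 pituitary peaks. A peak did not separate the genes that T3 raised from those it did not: Hr, Klf9 and Slc2a4 had one, and so did Me1, Atp2a2, Nrgn and Mbp. Peaks were called once per tissue on combined libraries, so they carry no replicate error.

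Other known T3 targets of the same tissues give the setting. Of 57 further target genes of liver, heart and muscle, and brain, 40 were tested and 16 (40.0%) were called in wild type, 7 higher and 9 lower, against 9.46% of all genes called in either direction. Their median change was -0.05 (log2), beside -0.04 over all genes. In Thrb-KO 1 was called higher and 2 lower, 7.5% of the 40, against 1.01% of all genes called in either direction. Of 12 liver and lipid genes Scd1, the stearoyl-CoA desaturase, rose by 1.22 (log2) and Gpd2, the mitochondrial glycerol phosphate dehydrogenase, by 1.01, while the fatty acid elongase Elovl6 changed by -0.84 and the kinase Pdk4 by -0.88.

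Of 10 heart and muscle genes 3 rose and 1 fell. Myh7, the slow myosin heavy chain, rose from 5.13 to 39.1 CPM in wild type (log2 2.63), against 7.54 and 5.68 CPM in Thrb-KO. Myh6, which T3 raises in heart, did not pass the filter and lay at 0.237 CPM in hypothyroid and 72.2 CPM in hyperthyroid wild type pituitary on average. Ryr2, the calcium release channel, rose by 1.49 (log2), and Slc8a1, the sodium-calcium exchanger, fell from 143 to 52.6 CPM (log2 -1.47) and was called in Thrb-KO as well.

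Of 18 brain genes 2 rose (Aldh1a1 and Cbr2) and 6 fell. The neurotrophin Bdnf fell from 48.0 to 6.41 CPM (log2 -2.72), the calcium buffer Calb1 from 130 to 28.6 CPM (-2.12) and the kinase Camk4 from 10.6 to 3.41 CPM (-1.42). The neurofilaments Nefm and Nefh (-0.97 and -0.76) and the kinase Dgkg (-0.64) were also called lower. Bdnf was called in Thrb-KO too, and its response there was smaller by 1.65.

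**Figure D5:**
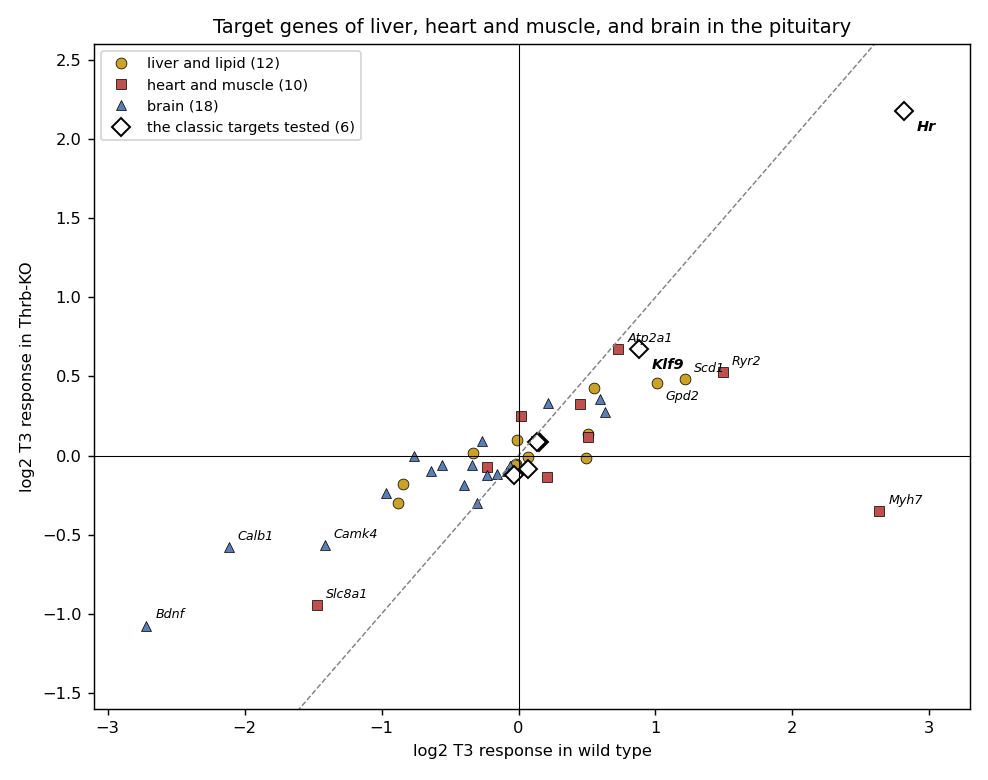
T3 response (log2) in wild type against that in Thrb-KO for 40 target genes of liver and lipid, heart and muscle, and brain, and for the 6 classic targets tested (diamonds), with a dashed line where both are equal. Hr lies at 2.82 in wild type and 2.18 in Thrb-KO and Klf9 at 0.88 and 0.67, while Myh7 lies at 2.63 and -0.35, Bdnf at -2.72 and -1.07 and Calb1 at -2.12 and -0.58.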

How the data were processed

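RNA-seq, ChAP-seq and ATAC-seq of mouse pituitary (and ChAP-seq of cortex) were read from the deposited tables, which use mm9. For RNA the authors used BBMap against the RefSeq transcript set (mm9), and the deposited values are CPM for each transcript in each library. They mapped ATAC reads with Bowtie2 (the submitters' processing notes also name STAR, without its role). Whole read counts were recovered from the deposited CPM for 100% of values (tolerance 0.01 reads). Their sum over all transcripts gave the depth per library. The authors called ChAP peaks with SICER 1.1 (window 50 bp, FDR 1e-06) on combined libraries, and the deposited peak lists give tagged and control read counts, a fold ratio, and a p-value and FDR of the peak caller, of which the FDR was used. The deposited ATAC list holds the positions of T3-regulated sites and the adjusted p-value of the authors' own comparison, which was not used.

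For each gene the transcript with the highest mean CPM was kept. Genes above 1 CPM in all 18 libraries were fitted with limma 3.58.1 (R 4.3.3) on log2(CPM + 1) over all 4 groups, with Benjamini-Hochberg adjustment over all genes tested. A gene was called at an adjusted p under 0.05 and at least 1.5-fold. Genes above 1 CPM in at least 4 libraries were fitted in the same way, and members below the first filter were read from that fit, except the T3 responses of Slc2a4, which were read from the fit without a filter. edgeR 4.0.16 and DESeq2 1.42.0 were run on the recovered reads as alternatives. The fits were tested on simulated counts. Peaks were assigned to gene bodies of GENCODE vM1 (NCBIM37) within 20 kb, and DR4 windows were searched on both strands with at most 2 mismatches over 12 bases, the 4 spacer bases being free. Libraries with the same replicate number deviated together in every pair of groups (correlations 0.255 to 0.815), as did other libraries of the same set (0.271 to 0.755). These ranges overlap, so they do not show that equal numbers are pairs. The numbers were treated as pairs only in an alternative with a replicate block.

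The genes, their lists and the tests were chosen with earlier results of these data known. The text names the 9 genes, the 2 genes with the highest Pearson r to each tested member over 18 libraries, and the largest changes, up to 6, of each listed group called in wild type. ChIP-seq of histone marks and ChAP-seq of treated mice were not used here. Some listed genes and sequences are not reported here.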

Additional observations from a re-analysis of the deposited data

Results flagged for a closer look

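Within groups of 4 or 5 libraries, 2 of 36 values by gene and group stood apart from the rest, and chance alone flags about 1 in 20. Hr in hyperthyroid wild type replicate 3 lay at 124.7 CPM, with the other 3 libraries between 193 and 206 CPM. The same library was the lowest of its group for Klf9, Slc2a4, Atp2a2 and Mbp, and the highest for Thrsp and Nrgn. Nrgn in hypothyroid wild type replicate 1 lay at 1.341 CPM, with the others between 0.834 and 0.918 CPM, a level at which each library held 18 to 66 reads. The cause of either value was not tested.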

How the results depend on the processing

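The T3 responses of Hr and Klf9 kept their direction under every alternative tried, and in wild type also their call (2.74 to 2.98 and 0.74 to 1.02, log2). Slc2a4 ranged from 0.97 to 2.06 in wild type, but all except the fit without a filter used a filter that it passed only through its high groups, so these add no support. The number of the 6 tested genes called in Thrb-KO fell from 2 to 1 within replicates 3 to 5, and ranged from 1 to 2 when libraries were left out in turn (1 without hypothyroid Thrb-KO replicate 5), Klf9 being the gene lost. The number called in the interaction rose from 0 to 1 with DESeq2 and with the replicate set as a term, and ranged from 0 to 1 when libraries were left out, Hr being the gene gained among the 6 (-0.75, adjusted p = 0.025, and -0.64, adjusted p = 0.0499). Slc2a4, outside the 6, passed there only without hyperthyroid wild type replicate 3. That was in the filtered fit, which adds no support. With a replicate block the counts were 2, 2, 0, 1 and 0 for the 5 comparisons, as without the pairing, and no other call changed. Leaving out libraries kept 2 genes called in wild type, 1 in the hypothyroid and 0 in the hyperthyroid genotype comparison. The genes with a T3-regulated ATAC site numbered 0 within 5 kb and 3 within 100 kb, and the pituitary peaks with a DR4 match numbered 0 with at most 1 mismatch and 11 with at most 3. Over 1227 alternative values for the 9 genes none reversed a call, 45 changed sign in comparisons that were called in neither fit, and the count of listed target genes called in wild type ranged from 14 to 20. Depth limits Pcp2, and low reads with a wide spread between libraries limit Nrgn. Counting reads of transcripts that share sequence limits Mbp and Atp2a2.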
